A study of Mus musculus with 6 samples.

Results

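Genes of the red cell lineage were followed in RNA-Seq data from microdissected craniofacial tissue of E12.5 mouse embryos. The genes were chosen by name. They were the transcription factors *Gata1*, *Klf1* and *Tal1*, the receptors *Epor* and *Tfrc*, the haem enzyme *Alas2*, the globin chaperone *Ahsp*, the membrane anion exchanger *Slc4a1* and the nuclear protein gene *Hemgn*. Of these 9 genes, 8 were matched to a row among the 38553 genes of the deposited table, and *Ahsp* was not analysed here. The 3 control embryos carried the genotype Rbfox2 flox/flox without Cre. The 3 *Rbfox2* mutant embryos were Pax3Cre/+:Rbfox2 flox/flox, so floxed *Rbfox2* alleles were common to all 6 samples, and no sample carried Cre without both floxed alleles. Cre was knocked into *Pax3*, which is active in neural crest cells before and during migration and in paraxial mesoderm, and the animals were of mixed background. Effects of the Cre allele and of *Rbfox2* loss cannot be told apart in these groups.

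Red blood cells are not derived from the neural crest. At midgestation the circulation of a mouse embryo carries large, nucleated primitive red cells from the yolk sac together with the first definitive cells from the fetal liver, and blood in the vessels is dissected along with any tissue. Gata1, Tal1 and their cofactors bind the regulatory regions of red cell genes, and Klf1 acts with them on the globin, haem and membrane genes. Erythropoietin signals through Epor to keep erythroid precursors alive, and the transferrin receptor Tfrc brings in iron for the haem that begins with Alas2. Of these genes, *Tfrc* is also used by most dividing cells, and *Tal1* and *Epor* are also found in endothelium.

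The deposited values are FPKM, fragment counts scaled by gene length and by the mapped fragments of the sample, which places genes of different length on 1 scale. They summed to 528123 to 590174 per sample. The number of reads behind a value is unknown, so no counting interval is given. *Rbfox2* itself was at 58.4, 65.0 and 61.3 FPKM in control replicates 1, 2 and 3 and at 38.1, 36.3 and 34.3 in mutant replicates 1, 2 and 3, lower in each mutant than in each control. The labelled tissue was reflected in its mesenchymal genes, all 10 of which passed the filter described below, with *Col3a1* and *Col1a1* the highest. Both samples numbered 1 stood apart on the main axis of variation over all genes (54.7% of the variance), so differences are also given within replicate numbers.

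To show what the red cell genes share in sequence, the 250 bases before the start were taken from RefSeq on GRCm38.p6, where 7 of the 8 genes had an entry (*Slc4a1* did not). *Tal1* and *Tfrc* had a pair of starts each, for 9 windows in all. These starts need not be the outer end of the gene spans given below. The windows of *Gata1* and *Hemgn* and 1 window of *Tal1* lie inside those spans. The windows of *Alas2* and *Klf1* and 1 window of *Tfrc* reach into them. The motif of GATA factors was searched on both strands as AGATAA, then as AGATAG, then as TGATAA, then as TGATAG. It was found in at least 1 window of 5 of the 7 genes, namely *Alas2*, *Klf1*, *Epor*, *Hemgn* and *Tal1*, in 5 of the 9 windows, and in 26.5% of all 32851 windows of the same length in the table. The motif CCNCNCCC, a general form of the CACCC box that Klf1 binds, was found on either strand in 6 of the 7 genes, all but *Klf1*, in 7 of the 9 windows, and in 45.9% of all windows. A match of these letters is a description of the window and not a bound site. The upstream windows of 5 genes are shown 5′ to 3′ on the strand of the gene, with the GATA motif, on either strand, in capitals.
*Alas2*, chrX:150547167-150547416, plus strand: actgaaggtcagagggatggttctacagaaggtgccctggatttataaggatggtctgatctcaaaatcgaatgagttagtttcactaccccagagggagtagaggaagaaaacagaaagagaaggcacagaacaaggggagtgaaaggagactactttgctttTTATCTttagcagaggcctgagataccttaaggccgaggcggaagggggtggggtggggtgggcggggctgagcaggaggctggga
*Klf1*, chr8:84901732-84901981, plus strand: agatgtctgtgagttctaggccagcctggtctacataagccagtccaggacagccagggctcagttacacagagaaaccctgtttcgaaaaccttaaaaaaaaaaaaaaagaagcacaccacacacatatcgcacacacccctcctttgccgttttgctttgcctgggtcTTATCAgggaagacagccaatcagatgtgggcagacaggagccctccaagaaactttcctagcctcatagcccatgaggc
*Epor*, chr9:21963577-21963826, minus strand: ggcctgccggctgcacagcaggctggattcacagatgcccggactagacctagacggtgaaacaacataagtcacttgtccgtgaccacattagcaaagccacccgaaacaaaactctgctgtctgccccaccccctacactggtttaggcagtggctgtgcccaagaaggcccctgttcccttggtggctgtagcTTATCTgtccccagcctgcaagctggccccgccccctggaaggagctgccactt
*Hemgn*, chr4:46404184-46404433, minus strand: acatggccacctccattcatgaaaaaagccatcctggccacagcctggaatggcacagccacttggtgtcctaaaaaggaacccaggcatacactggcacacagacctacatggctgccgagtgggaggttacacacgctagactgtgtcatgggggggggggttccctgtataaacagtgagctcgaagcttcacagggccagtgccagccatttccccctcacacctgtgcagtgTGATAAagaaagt
*Gata1*, chrX:7967911-7968160, minus strand: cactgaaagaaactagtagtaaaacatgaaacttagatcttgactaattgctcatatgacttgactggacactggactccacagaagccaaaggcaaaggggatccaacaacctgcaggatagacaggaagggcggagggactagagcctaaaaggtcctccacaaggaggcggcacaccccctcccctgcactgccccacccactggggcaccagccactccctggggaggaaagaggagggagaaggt
The match nearest to the start was that of *Hemgn*, whose first base lay 13 bases before the start, followed by *Epor* at 54, *Klf1* at 80 and *Alas2* at 86. The window of *Gata1* held no match to these letters.

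On average over the 6 samples the 8 genes formed a high and a low set of FPKM levels. *Alas2* (22.7), *Tfrc* (22.5) and *Slc4a1* (18.3) were highest, and their ranges over the samples overlapped. *Tal1* followed at 3.47, and its highest sample was below the lowest sample of *Slc4a1*. *Klf1* (1.64) and *Epor* (1.61) came next, then *Hemgn* (0.831) and *Gata1* (0.767), and from *Tal1* down the sample ranges of neighbours in this order overlapped. The enzyme, the receptor for transferrin and the membrane protein of mature cells were thus above the transcription factors by FPKM. In bulk tissue, fewer cells that express a gene and less RNA per expressing cell cannot be told apart.

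**Figure D1:**
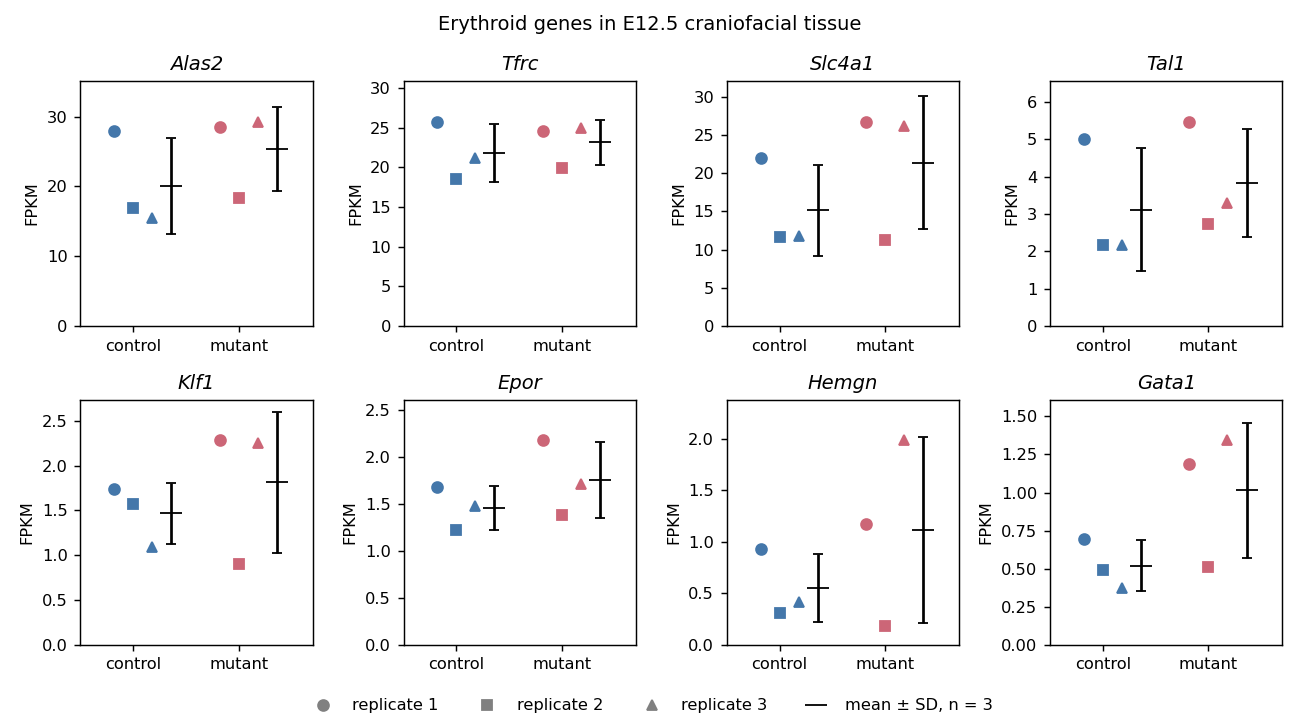
FPKM of each of the 8 erythroid genes (vertical axes, each from 0) in the 3 control and 3 mutant samples, with the marker shape giving the replicate number and black bars the mean ± SD. In all 8 genes control replicate 1 and mutant replicates 1 and 3 are the 3 highest samples, and the groups overlap.

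The red cell genes ranged widely among embryos of the same genotype. In each of the 8 genes the 3 highest samples were control replicate 1, mutant replicate 1 and mutant replicate 3, and the 3 lowest were control replicates 2 and 3 and mutant replicate 2. This order was noticed in the values and has no test. The same 3 samples were the highest in 7.58% of the 10061 genes that exceeded 5 FPKM in each sample of at least 1 genotype and in 5.98% of the 23063 genes with a value above 0. On the log2(FPKM + 1) scale, with each gene centred over the 6 samples, the mean of the 8 genes was 0.20 in control replicate 1, 0.38 in mutant replicate 1 and 0.34 in mutant replicate 3. It was -0.30, -0.31 and -0.31 in control replicates 2 and 3 and mutant replicate 2. The distance from the lowest to the highest sample ran from 0.45 (*Tfrc*) to 1.33 (*Hemgn*) with a median of 0.84, against a median of 0.33 over the 10061 genes and 0.29 over the 23063.

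Means were higher in the *Rbfox2* mutants for all 8 genes, but no gene passed the test. The genotypes were compared with limma on log2(FPKM + 1), with Benjamini-Hochberg adjustment over all genes in the fit. *Alas2*, *Tfrc* and *Slc4a1* passed the FPKM filter and were tested among 10061 genes. The other 5 did not, and their p-values come from the same fit on the 23063 genes with no filter. No adjusted p among the 8 was under 0.05 (0.00% of all genes in both fits), and none had an unadjusted p under 0.05 (1.66% of the filtered and 2.87% of the unfiltered genes). The adjusted p of the deleted gene *Rbfox2* was not under 0.05 either (log2 fold change -0.75, standard error 0.079, limma adjusted p = 0.14). An adjusted p above 0.05 here is therefore no evidence that a gene is unchanged. In none did the control and mutant values separate completely, as they did in 5.0% of the filtered and 6.34% of the unfiltered genes. The 8 log2 fold changes had a median of 0.30, and the median was 0.0057 over the filtered and -0.0014 over the unfiltered genes. A log2 fold change above 0 was found in 52.8% of the filtered and 49.0% of the unfiltered genes, and since the 8 genes follow the same samples they are not 8 independent readings. Log2 fold changes on this scale understate the change of genes with low FPKM.

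The 3 transcription factors were read first. *Gata1* (ENSMUSG00000031162, X chromosome of GRCm38, 7959260 to 7978071, minus strand), the master regulator of the lineage, was at 0.697, 0.492 and 0.369 FPKM in control replicates 1, 2 and 3 and at 1.19, 0.511 and 1.34 in mutant replicates 1, 2 and 3. Mutant replicates 1 and 3 were above every control, and mutant replicate 2 lay within control embryos. The log2 fold change was 0.39 (standard error, SE, 0.18, 95% interval -0.056 to 0.83, adjusted p = 1.0 from limma), and the exact two-sided permutation test of FPKM gave p = 0.20, where 3 samples against 3 cannot go below 0.10. This was the smallest p of the 8 genes in limma.

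*Klf1* (ENSMUSG00000054191, chromosome 8, 84901928 to 84905291, plus strand), the activator of the adult globin, haem and membrane genes, was at 1.74, 1.57 and 1.09 in control embryos and at 2.28, 0.896 and 2.26 in mutant embryos, in the order of replicates 1, 2 and 3. The mutants held both the highest and the lowest value. The log2 fold change was 0.15 (standard error 0.24, 95% interval -0.44 to 0.75, adjusted p = 1.0 from limma), less than its standard error.

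*Tal1* (ENSMUSG00000028717, chromosome 4, 115056426 to 115071755, plus strand), needed for the start of blood formation, was at 5.02, 2.16 and 2.17 in control embryos and at 5.46, 2.73 and 3.28 in mutant embryos. The samples numbered 1 of both genotypes stood above the other 4. The mutant was above the control in each replicate number, and the log2 fold change was 0.26 (standard error 0.33, 95% interval -0.54 to 1.06, adjusted p = 1.0 from limma).

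Of the receptors, *Epor* (ENSMUSG00000006235, chromosome 9, 21958897 to 21963506, minus strand) was at 1.69, 1.22 and 1.48 FPKM in control replicates 1, 2 and 3 and at 2.18, 1.38 and 1.71 in mutant embryos. Its log2 fold change was 0.16 (standard error 0.14, 95% interval -0.19 to 0.50, adjusted p = 1.0 from limma). *Tfrc* (ENSMUSG00000022797, chromosome 16, 32608920 to 32632794, plus strand) was at 25.8, 18.6 and 21.2 in control embryos and 24.6, 19.9 and 24.9 in mutant embryos. It varied least of the 8 genes, by 1.39 times from the lowest to the highest sample, and its log2 fold change was 0.086 (standard error 0.14, 95% interval -0.24 to 0.42, adjusted p = 1.0 from limma). The sign of this small difference changed to -0.019 without control replicate 2.

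*Alas2* (ENSMUSG00000025270, X chromosome, 150547375 to 150570638, plus strand), the erythroid enzyme that starts haem synthesis, was at 27.9, 16.8 and 15.4 FPKM in control embryos and at 28.4, 18.4 and 29.2 in mutant embryos. The 3 high samples lay close together, whichever genotype they had. The log2 fold change was 0.34 (standard error 0.25, 95% interval -0.26 to 0.94, adjusted p = 1.0 from limma). In GENCODE M21 all 23264 bases of *Alas2* lie inside the span of *Apex2* on the other strand, and whether the counting used strand is not stated. *Apex2* was at 9.97 to 10.99 FPKM in the 6 samples and did not follow the order of *Alas2*.

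*Slc4a1* (ENSMUSG00000006574, chromosome 11, 102348824 to 102366203, minus strand), which encodes the anion exchanger band 3 that ties the red cell membrane to its skeleton, was at 22.0, 11.6 and 11.8 in control embryos and at 26.7, 11.3 and 26.1 in mutant embryos. It had a log2 fold change of 0.44 (standard error 0.37, 95% interval -0.42 to 1.30, adjusted p = 1.0 from limma). Mutant replicate 2 was nonetheless the lowest of the 6 samples. *Hemgn* (ENSMUSG00000028332, chromosome 4, 46393989 to 46413506, minus strand), a nuclear protein gene of blood precursors, was at 0.925, 0.302 and 0.417 in control embryos and at 1.17, 0.183 and 1.98 in mutant embryos, a span of 10.8 times within 1 genotype. Its log2 fold change was 0.37 (standard error 0.35, 95% interval -0.48 to 1.22, adjusted p = 1.0 from limma).

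Within replicate numbers the difference lay mainly in replicate 3. All 8 genes were higher in mutant than in control replicate 3, with a median difference of 0.71 on the log2(FPKM + 1) scale. In FPKM, mutant replicate 3 was at 4.75 times control replicate 3 for *Hemgn*, 3.64 times for *Gata1* and 2.21 times for *Slc4a1*. It was at 2.07 times for *Klf1*, 1.89 for *Alas2*, 1.52 for *Tal1*, 1.18 for *Tfrc* and 1.16 for *Epor*. The 2 largest ratios rest on control values of 0.417 and 0.369 FPKM. Over the filtered genes the median difference was 0.0152 in replicate 3, 0.0057 in replicate 2 and -0.0135 in replicate 1. The share of all genes higher within a single replicate number was not counted. Between the samples numbered 1, 7 of the 8 genes were higher in the mutant with a median of 0.21, *Tfrc* being the exception at -0.063. In replicate 2, 5 genes were higher and the median was 0.058, with *Klf1* at -0.44, *Hemgn* at -0.14 and *Slc4a1* at -0.037. The mutant was above the control in all 3 numbers for 4 genes, namely *Gata1*, *Tal1*, *Epor* and *Alas2*, as it was for 13.6% of the filtered and 11% of the unfiltered genes. Without mutant replicate 3 the median log2 fold change was 0.20, without mutant replicate 1 it was 0.14, and without control replicate 3 it was 0.18. Without mutant replicate 2 it was 0.49, and *Gata1*, *Klf1*, *Slc4a1* and *Hemgn* then had an unadjusted p under 0.05 (1.07% of the filtered and 2.68% of the unfiltered genes in these fits) and an adjusted p of 1.0 in limma. Without control replicate 1 it was 0.50, and *Alas2* had an unadjusted p under 0.05 (6.45% of the filtered genes), with an adjusted p of 0.734 in limma.

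**Figure D2:**
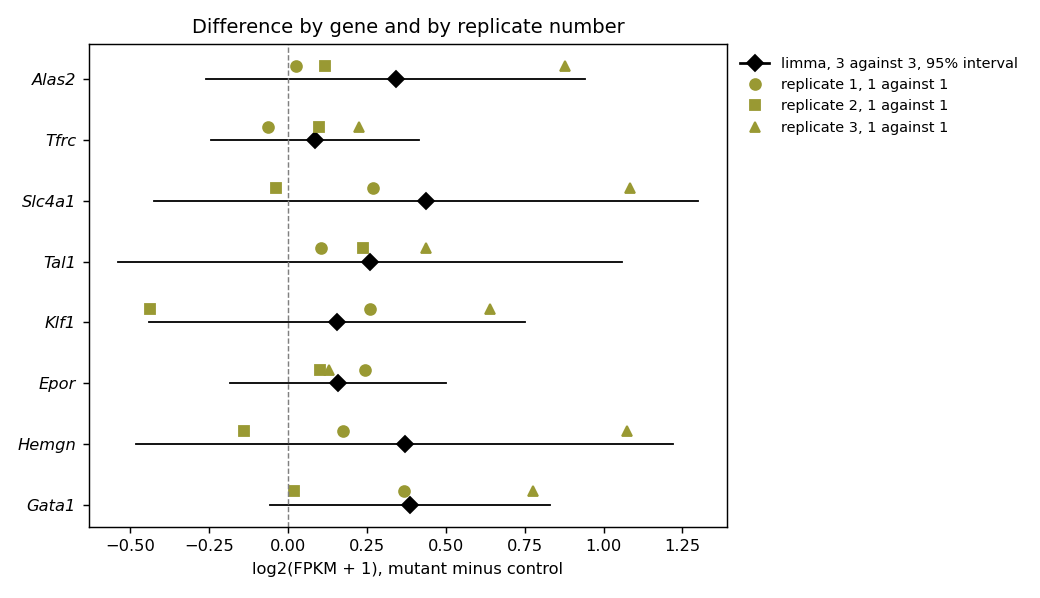
Mutant minus control difference in log2(FPKM + 1) (horizontal axis) for each gene, with black diamonds and lines for the limma estimate and its 95% interval and olive markers for the single differences between samples of the same replicate number. Every interval includes 0, and the replicate 3 difference is the largest of the 3 in all genes but *Epor*.

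*Gata1* and *Alas2* are X-linked, and the sexes were not balanced. The summed FPKM of 4 Y-linked genes was 57.7 and 55.5 in mutant replicates 1 and 2 and 0.0989 to 0.217 in the other 4 samples. The high and the low samples of both X-linked genes included embryos with and without Y-linked expression. With the mean of the Y-linked genes as a covariate the log2 fold changes were 0.63 for *Gata1* (SE 0.24, limma adjusted p = 1.0) and 0.57 for *Alas2* (SE 0.37, limma adjusted p = 0.999). The autosomal genes moved too, with *Hemgn* at 0.97, *Slc4a1* at 0.80, *Klf1* at 0.41, *Tfrc* at 0.20, *Epor* at 0.14 and *Tal1* at 0.12, and the median of the 8 genes was 0.49. In this fit, mutant replicate 3 alone carries the genotype difference among embryos without Y-linked transcripts. The part of sex in these differences was not tested further.

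Some of the other red cell genes followed the same embryos, to different degrees. Control replicate 1 and mutant replicates 1 and 3 were the 3 highest in 7.58% of all filtered and 5.98% of all unfiltered genes. Of the 17 genes listed for the red cell membrane and skeleton, 10 had control replicate 1 and mutant replicates 1 and 3 as their 3 highest samples. Named after its values were seen, 1 of these is *Rhag*, which encodes the Rh-associated glycoprotein, at 1.79, 0.617 and 0.747 in control embryos and 2.52, 0.470 and 2.04 in mutant embryos. The highest genes of the list did not have this order. *Epb41*, which encodes the skeletal protein 4.1, was at 75.5, 84.8 and 86.4 in control embryos and 80.5, 86.0 and 98.2 in mutant embryos, and *Gypc* was at 18.0, 21.3 and 20.0 and at 20.2, 21.3 and 20.2. Genes of a list are counted as higher or lower by the sign of their log2 fold change on the log2(FPKM + 1) scale. Of the 17 genes 12 were higher and 5 lower in the mutants, with a median log2 fold change of 0.098. None had an adjusted p under 0.05, and 1 had an unadjusted p under 0.05, *Add2*, an adducin gene that is also neuronal, with a log2 fold change of 0.32 (SE 0.13, limma adjusted p = 1.0).

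All 8 globin genes, among them *Hbb-bh2* at 0.105 FPKM or less, had a log2 fold change above 0, with a median of 0.37, although the mean FPKM of *Hbb-bt* was 174 in control and 160.2 in mutant embryos, and none had an unadjusted p under 0.05. The embryonic gene *Hbb-y*, the highest of all, was at 6611, 3441 and 3811 FPKM in control embryos and at 6605, 4592 and 7358 in mutant embryos, which is the order of the 8 erythroid genes. *Hba-a1*, of the adult type, was at 1478, 668 and 728 in control embryos and 1378, 1083 and 1053 in mutant embryos, with mutant replicate 2 above mutant replicate 3. The globin genes other than *Hbb-y* and *Hba-a1* were named after their values were seen. *Hba-a1* and *Hba-a2* are nearly identical, so how reads were shared between them is uncertain. The order was found in 4 of the 8 globin genes, namely *Hbb-y*, *Hbb-bh1*, *Hba-x* and *Hbb-bt* (deposited as *Hbb-b2*). Of these, *Hbb-y*, *Hbb-bh1* and *Hba-x* are the embryonic globins. The adult *Hbb-bs* (deposited as *Hbb-b1*) ran otherwise, at 248, 327 and 153 in control embryos and 241, 369 and 198 in mutant embryos, highest in both samples numbered 2. How reads were divided between *Hbb-bs* and *Hbb-bt* was not tested. Globin FPKM summed to 5591 to 11080 in control embryos and to 7549 to 11470 in mutant embryos.

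Among the 11 other genes of haem synthesis, 6 were higher and 5 lower in the mutants, the median log2 fold change was 0.0062, and none had an unadjusted p under 0.05. The highest, *Tmem14c* and *Urod*, were at 78.7 to 84.0 and 45.9 to 52.3 FPKM over the 6 samples and did not show the order, which was found in 6 of the 11. The mitochondrial iron importer *Slc25a37*, named after its values were seen, was at 16.7, 8.17 and 8.55 in control embryos and 18.9, 6.26 and 14.6 in mutant embryos. Of 13 other erythroid transcription factors and cofactors, 10 were higher and 3 lower (median 0.053), and 4 had the order. The highest, *Ldb1* and *Bcl11a*, had log2 fold changes of 0.019 and 0.053 with standard errors of 0.091 and 0.086. The 9 genes of erythropoietin and Kit signalling (4 higher, 5 lower, median -0.0015) held 1 gene with the order, close to the share over all genes. Of these, *Bcl2l1*, an anti-apoptotic target of Epor, had a log2 fold change of 0.14 (standard error 0.073), and the kinase gene *Pim1* one of 0.069 (standard error 0.15).

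Of the 11 genes of iron uptake and storage, 7 were higher and 4 lower (median 0.052), and 1 had the order. The ferritin genes *Ftl1* and *Fth1* were the highest, with log2 fold changes of 0.085 and 0.083 and standard errors of 0.11 and 0.092. *Slc11a2*, the iron transporter that acts after Tfrc, was at 12.1, 11.5 and 11.6 FPKM in control embryos and 9.27, 8.65 and 11.3 in mutant embryos. The groups did not overlap, as in 5.0% of the filtered genes. They did not overlap either in *Urod*, *Bcl2l1*, *Car1*, *Egfl7* and *Col1a1*, among others. The log2 fold change of *Slc11a2* was -0.25 (SE 0.10, limma adjusted p = 1.0), and it was the only gene of this list with an unadjusted p under 0.05. Of the 12 red cell enzymes and late genes, 10 were higher and 2 lower (median 0.11), and 3 had the order. The highest, the antioxidant *Prdx2* and the mitophagy gene *Bnip3l*, had log2 fold changes of 0.081 and -0.020 with standard errors of 0.14 for both. *Car1*, the carbonic anhydrase of later red cells and the only one of these with an unadjusted p under 0.05, was at 0.193 FPKM or less in every sample and listed at 0 in control replicate 1.

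**Figure D3:**
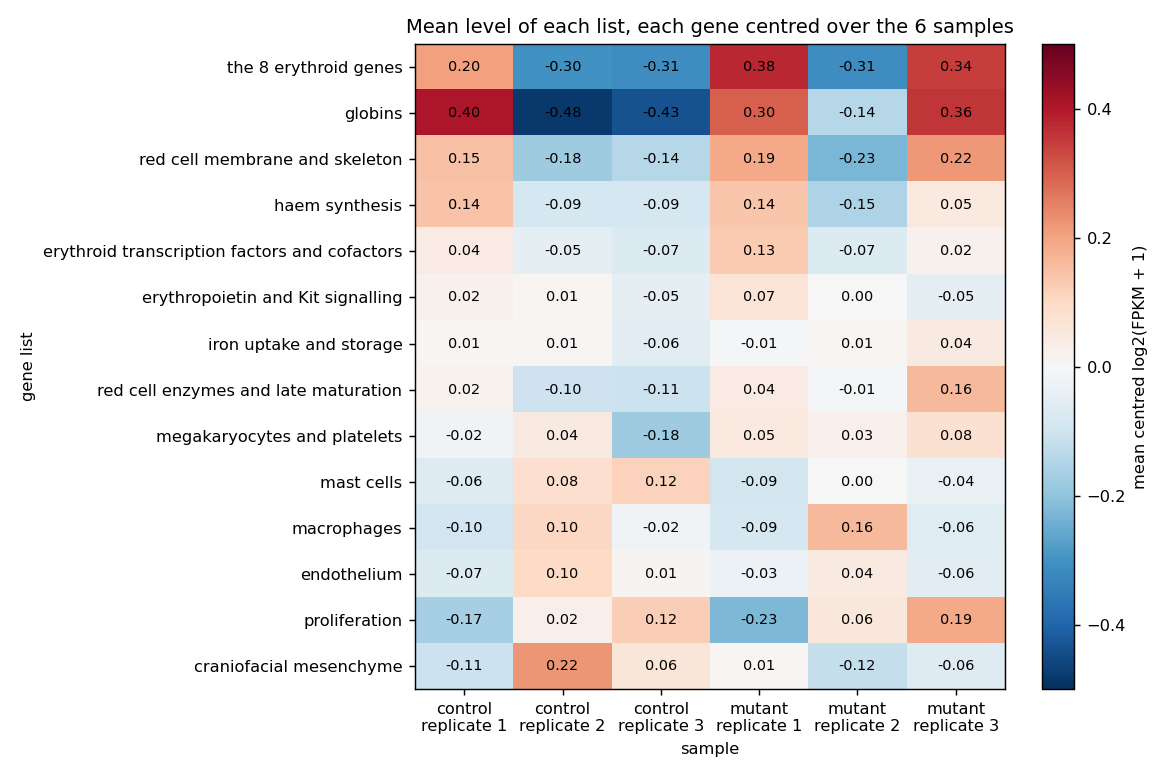
Mean of log2(FPKM + 1) over the genes of each list (rows), with each gene centred on its mean over the 6 samples (columns), printed in each cell and coloured from blue, below the mean, to red, above it. The 8 erythroid genes run from -0.31 to 0.38 and the globins from -0.48 to 0.40, while the macrophage and endothelial lists stay between -0.10 and 0.16. The membrane list runs from -0.23 to 0.22, proliferation from -0.23 to 0.19 and mesenchyme from -0.12 to 0.22. Haem synthesis runs from -0.15 to 0.14 and the other erythroid transcription factors from -0.07 to 0.13.

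Markers of other cells that use these genes mostly ran in another order. Of the megakaryocyte and platelet genes, in which *Gata1* and *Tal1* are also active, 5 of 8 were higher in the mutants (median 0.12) and 1 of 8 had the order. Their FPKM summed to 16.9 to 23.5 in control embryos and 22.2 to 25.8 in mutant embryos. The highest, *Pf4* and *Ppbp*, had log2 fold changes of 0.22 and 0.28 with standard errors of 0.13 and 0.17. The 7 mast cell genes summed to 1.90 to 3.78 in control embryos and 1.76 to 2.45 in mutant embryos, were lower in the mutants in 7 of 7 (median -0.027), and stayed at 0.425 FPKM or less apart from *Cpa3* at 1.11 to 2.31 and *Hdc* at 0.410 to 1.03 FPKM. *Fcer1a* and *Tpsb2*, named after their values were seen, were above 0 only in control replicate 2, at 0.0239 and 0.0223 FPKM. The sign of their change rests on that sample. Also named after their values were seen are *Mcpt4* and *Ms4a2*. *Mcpt4* was above 0 only in control replicate 3 (0.0278) and mutant replicate 1 (0.0207). *Ms4a2* was at 0 in mutant replicates 1 and 2 and highest in mutant replicate 3 (0.119). The signs of these genes rest on values close to 0. The 12 endothelial genes (7 higher, 5 lower, median 0.0039) and the 11 macrophage genes (7 higher, 4 lower, median 0.056) held no gene with the order. Endothelial FPKM summed to 169 to 198 in control embryos and 169 to 184 in mutant embryos, with *Cdh5* at 19.6 to 29.7. *Egfl7* was the only endothelial gene with an unadjusted p under 0.05, with a log2 fold change of -0.20 (SE 0.081, limma adjusted p = 1.0). Macrophage FPKM summed to 60.7 to 72.1 and 59.7 to 76.5, with *C1qb* at 8.11 to 13.2 and the haem oxygenase *Hmox1* at 13.02 to 15.4.

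Proliferation genes, given because *Tfrc* is used by dividing cells, were 6 higher and 4 lower of 10 (median 0.010), summed to 879 to 1072 in control embryos and 828 to 1111 in mutant embryos, and had their lowest sums in control and mutant replicate 1. The order of the 8 erythroid genes was found in 1 of the 10. *Cdk1* ran from 130 to 215 and *Pcna* from 178 to 212 FPKM. The mesenchymal genes of the tissue were 1 higher and 9 lower of 10 (median -0.096) and summed to 767 to 1034 in control embryos and 785 to 820 in mutant embryos. Of these 10 genes, 1 had the order. *Col1a1* had an unadjusted p under 0.05, with a log2 fold change of -0.42 (SE 0.17, limma adjusted p = 1.0), and *Col3a1* had one of -0.17 (standard error 0.23). The part of these cell mixtures in the levels of the 8 erythroid genes was not tested.

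Levels were also set against other red cell genes of the same sample. For each of the 8 genes the mean log2(FPKM + 1) of the globins, or of the membrane and skeleton list, was subtracted within each sample. Set against the globins, *Alas2* spread over 0.22 log2 units in the 6 samples, where its own level spread over 0.88. Its difference from the globin mean was -3.57 ± 0.10 in control embryos and -3.57 ± 0.089 in mutant embryos (SD, n = 3 each). *Slc4a1* narrowed from 1.17 to 0.73, while *Tfrc* (0.45 to 0.57) and *Epor* (0.52 to 0.72) widened. Set against the membrane list, *Tfrc* spread over 0.15, *Epor* over 0.26, *Klf1* over 0.38 and *Gata1* over 0.42. That list holds broadly used genes such as *Epb41* and *Gypc*, so it stands for red cells only in part.

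**Figure D4:**
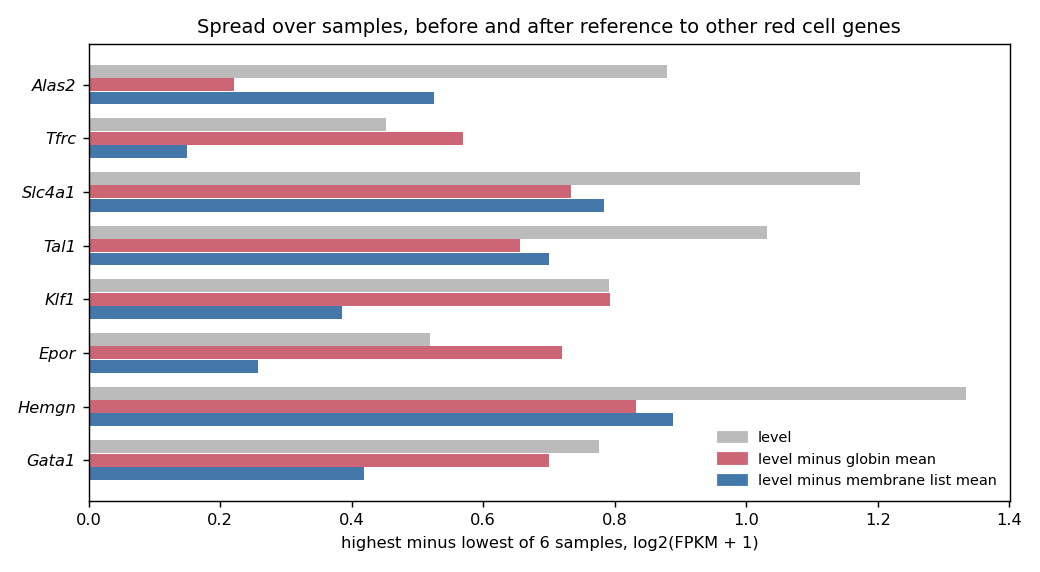
Distance from the lowest to the highest of the 6 samples, in log2(FPKM + 1) units (horizontal axis, from 0), for the level of each gene (grey), for the level minus the mean of the globins (red) and for the level minus the mean of the membrane and skeleton list (blue). *Alas2* falls from 0.88 to 0.22 against the globins, and *Tfrc* from 0.45 to 0.15 against the membrane list.

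No genotype difference on these relative scales had an adjusted p under 0.05, which 3 samples against 3 could not reach. *Gata1* minus the membrane list was -1.63 ± 0.088 in control embryos and -1.36 ± 0.094 in mutant embryos (SD, n = 3 each), higher in all 3 mutants than in all 3 controls by 0.27 (exact two-sided permutation p = 0.10, the smallest possible, and 1.0 after Benjamini-Hochberg adjustment over the 16 comparisons of 8 genes with 2 references). With a pseudocount of 0.1 in place of 1 the difference was 0.63. Against the globins the same gene differed by 0.045, and the groups overlapped. In the other 15 comparisons the groups overlapped as well, with differences from -0.26 for *Tfrc* against the globins to 0.32 for *Slc4a1* against the membrane list.

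Genes outside these lists with the most similar profile were named by the root mean square difference between their centred log2(FPKM + 1) values and the mean profile of the 8 genes over the 6 samples, among the 10061 filtered genes. The closest were *Mdm1* (0.071), *Hsd3b6* (0.10), *Pdzk1ip1* (0.11), *Dyrk2* (0.11), *Ube2l6* (0.13), *Slc39a8* (0.13), *Ccnj* (0.15) and *Atp8a1* (0.15). *Mdm1* was at 22.7, 14.6 and 16.3 FPKM in control embryos and 26.7, 14.3 and 25.6 in mutant embryos. *Pdzk1ip1*, at 6.58, 4.16 and 4.80 and at 9.12, 5.28 and 8.11, lies on chromosome 4 from 115088708 to 115093899, downstream of *Tal1* on the same strand. Each of the 8 had an adjusted p of 1.0 in limma.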

How the data were processed

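Group (control or mutant) and replicate number were taken from the sample titles. Across the whole study, the methods also list Rbfox2 flox/+ and Pax3Cre/+:Rbfox2 flox/+ embryos among the controls. Per the labels, the authors made poly(A) libraries with a stranded kit and aligned reads to GRCm38 with STAR (the submitters' processing notes also name FastQC 0.11.4 and Cuffdiff). The step that made the gene values, its annotation and its use of strand are not given in the sources used here. The authors deposited 1 FPKM value per gene and sample, and the single-sample files held the same values (0 differences). FPKM removes gene length and depth but loses the read counts, so precision could not be derived from depth.

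Genes that exceeded 5 FPKM in each sample of at least 1 genotype were kept, after the study's methods, and log2(FPKM + 1) was compared with limma 3.58.1 in R 4.3.3 (intensity trend, no covariates, Benjamini-Hochberg adjustment). Erythroid genes outside the filter took their p from the fit without it. The code was tested on simulated data. The erythroid genes and the 14 lists (143 genes, all matched, 6 by identifier and 1 by a RefSeq synonym) were chosen with earlier results of these data known. Named genes are the erythroid genes, the 2 highest of each list and its smallest p under 0.05, and the 8 with the nearest profile; others are said to be named after their values were seen. Alternatives were a pseudocount of 0.1, median ratio scaling, quantile normalization, a replicate block, a mean FPKM filter of 1, no filter, no trend, a Y-linked covariate, a term for replicate 1, replicates 2 and 3 only, and each sample left out. Deviations from group means correlated at 0.644, 0.258 and 0.513 between samples numbered 1, 2 and 3, each over the limit of 0.1. Control 3 with mutant 2 (0.401) was above the samples numbered 2, and control 2 with mutant 3 was at 0.234. These values do not settle whether the numbers pair the samples, and the labels do not state it. The reported fit is unpaired, with the replicate block as an alternative. The labels call the replicates independent. Other statistics used Python 3.11.15.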

Additional observations from a re-analysis of the deposited data

How the results depend on the processing

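Over the 10 alternatives and the 6 fits without 1 sample, the log2 fold changes of the 8 genes kept their sign in 127 of 128 values, and no adjusted p fell below 0.434. The exception was *Tfrc*, which ran from -0.019 without control replicate 2 to 0.21 without control replicate 1. The replicate block, the term for replicate 1, the mean FPKM filter, no filter and no trend leave each log2 fold change as it was. The signs under these settings were fixed in advance and are no check of the result. The order of the 8 log2 fold changes depended on the pseudocount: *Slc4a1* was highest at 0.44 with 1, and with 0.1 it was at 0.46, below *Gata1* (0.79) and *Hemgn* (0.61). The count of the 8 genes above 0, followed after the data were seen, was 8, and 7 without control replicate 2. None of the 8 had an unadjusted p under 0.05, against 1 with replicates 2 and 3 only (*Alas2*), and 0 to 4 when 1 sample was left out. There was 1 without control replicate 1, and there were 4 without mutant replicate 2. Without mutant replicate 2, 108 of the 10061 filtered and 619 of the 23063 unfiltered genes were also under 0.05. Of the 4, *Slc4a1* was tested in the filtered fit and *Gata1*, *Klf1* and *Hemgn* in the unfiltered fit. Over the 10061 filtered genes, 167 had an unadjusted p under 0.05, against 604 with the replicate block, 611 with a term for replicate 1 and 1103 with replicates 2 and 3 only. With 1 sample left out the count ran from 78 (without control replicate 2) to 649 (without control replicate 1). Over the genes of their own fits, it was 286 with a mean FPKM filter of 1 and 663 with no filter. An adjusted p under 0.05 was reached by none, against 3 with a term for replicate 1, 4 with replicates 2 and 3 only and 0 to 1 with 1 sample left out (1 without mutant replicate 3); the cause was not tested. The replicate block changed no call of the 8 genes. With it, unadjusted p in limma ran from 0.069 for *Gata1* (adjusted p = 0.885) to 0.54 for *Klf1*. Levels relative to the membrane list changed sign with the globins as reference for *Alas2* (-0.0012), *Tal1* (-0.084), *Klf1* (-0.19) and *Epor* (-0.18), and with 1 sample left out ran from -0.022 to 0.35 for *Tal1* and from -0.032 to 0.16 for *Klf1*. A pseudocount of 0.1 moved *Gata1* on that scale from 0.27 to 0.63 and *Hemgn* from 0.26 to 0.45, and *Slc4a1* ran from 0.19 (without mutant replicate 1) to 0.56 (without mutant replicate 2). List medians stayed within 1 SD between replicates in 213 of 224 values, which include the same settings that could not move an estimate. The number of reads behind each value is unknown, and no estimate of the smallest detectable difference was made.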
